A study of Mus musculus with 4 samples.

Results

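The genes described here are 10 transcripts of the integrated stress response and the unfolded protein response (*Atf4*, *Ddit3*, *Atf3*, *Trib3*, *Asns*, *Chac1*, *Sesn2*, *Hspa5*, *Xbp1* and *Herpud1*), taken by their symbols from the 19030 genes of an RNA-seq table of the inguinal fat pad, a subcutaneous white adipose depot (ingWAT). All 10 were listed and all 10 passed the filter on low values. The mice were C57BL/6, 3 months old and kept at 4°C. The methods of the study describe cold challenge in male mice, with a milder temperature before 4°C. Ctrl mice carry the floxed *Oct3* allele without Cre, and in cKO mice Adiponectin-Cre, which is active in adipocytes, deletes *Oct3*, an organic cation transporter also named *Slc22a3* that takes up norepinephrine. The Cre leaves the gene in the other cells of the depot. There were 2 libraries of each genotype, and the number of mice behind each library is not given in the sources used here, so the p-values measure the spread between these libraries, which may be technical.

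The integrated stress response starts from kinases that phosphorylate the translation factor eIF2α when amino acids are short, when heme is low, during viral infection or when the endoplasmic reticulum (ER) is overloaded. Most translation then slows, while the mRNA of *Atf4* is translated more, and the transcription factor ATF4 raises genes for amino acid supply and stress control. The unfolded protein response is the ER's own programme, with the sensors PERK (*Eif2ak3*), IRE1 (*Ern1*) and ATF6, and it raises chaperones and degradation factors of the ER. Secretory cells such as plasma cells, and adipocytes that make and secrete adipokines, depend on it. ATF4 and XBP1 are controlled largely by translation and by splicing, which an mRNA level per gene does not measure.

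The deleted gene was examined first. *Slc22a3* stood at 16.95 and 17.68 FPKM in the Ctrl libraries and at 9.07 and 9.5 FPKM in the cKO libraries, a log2 fold change of -0.83 (SE 0.066, adjusted p = 0.000439 in limma), in accordance with the labels. FPKM scales the reads of a gene by transcript length and by library size. The estimated depth lay between 17450000 and 18500000 reads per library. The adipocyte genes *Fabp4* and *Adipoq* reached at least 13456.13 and 966.16 FPKM in every library, as the tissue label says, and *Ucp1*, the uncoupling protein of brown and beige adipocytes, lay at 334.8 and 446.36 FPKM in Ctrl and at 1657.92 and 1420.2 FPKM in cKO.

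Of the 10 stress genes, 6 were higher in cKO, 3 were lower and 1, *Hspa5*, did not pass the threshold of an adjusted p under 0.05. The 6 that rose were *Atf3*, *Sesn2*, *Trib3*, *Ddit3*, *Herpud1* and *Atf4*, and the 3 that fell were *Chac1*, *Xbp1* and *Asns*. Among all 12658 genes tested, 12.0% were called higher and 13.8% were called lower. The log2 fold changes ran from -0.66 to 0.90 with a median of 0.29, beside a median of -0.006 over all genes tested. In 7 of the 10 both cKO libraries lay above both Ctrl libraries, and in the other 3 both lay below, against 31.9% and 34.6% of all genes tested. With 2 libraries against 2, an exact permutation test of a single gene cannot give a two-sided p under 0.333, so the calls rest on the spread that limma shares across genes. In none of the 10 did the genotypes overlap, so leaving out a library could not reverse a direction, but it changed the calls. *Asns* was the only gene still called without Ctrl replicate 1, and 3 genes were still called without Ctrl replicate 2, 5 without cKO replicate 1 and 7 without cKO replicate 2.

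**Figure D1:**
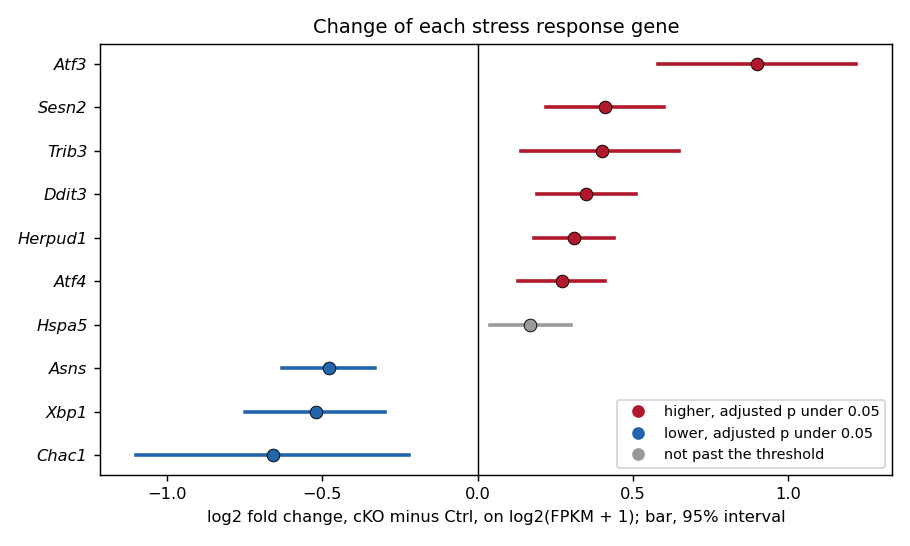
The log2 fold change of each of the 10 genes (cKO minus Ctrl, on log2(FPKM + 1), n = 2 libraries each) is plotted as a point with its 95% interval from limma, coloured by whether the adjusted p was under 0.05. *Atf3* is farthest to the right at 0.90, *Chac1*, *Xbp1* and *Asns* lie to the left of 0, and the interval of *Hspa5*, from 0.04 to 0.30, lies close to 0.

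The levels spanned a wide range, and FPKM allows them to be compared between genes since it is per length. In Ctrl the order from the highest was *Hspa5*, *Xbp1*, *Atf4*, *Asns*, *Herpud1*, *Ddit3*, *Sesn2*, *Trib3*, *Chac1* and *Atf3*, from a mean of 156 FPKM down to 2.46 FPKM. Neighbours in that order did not overlap in their libraries, except *Chac1* and *Atf3*. In cKO *Atf4* stood above *Xbp1*, *Herpud1* stood above *Asns*, and *Atf3* rose past *Chac1* to overlap with *Trib3*. Within a library, the ratio of *Xbp1* to *Atf4* was 1.29 and 1.14 in Ctrl and 0.617 and 0.778 in cKO, a ratio chosen after the values were seen. The 10 genes summed to 476 FPKM in both Ctrl libraries and to 484 and 493 FPKM in cKO.

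**Figure D2:**
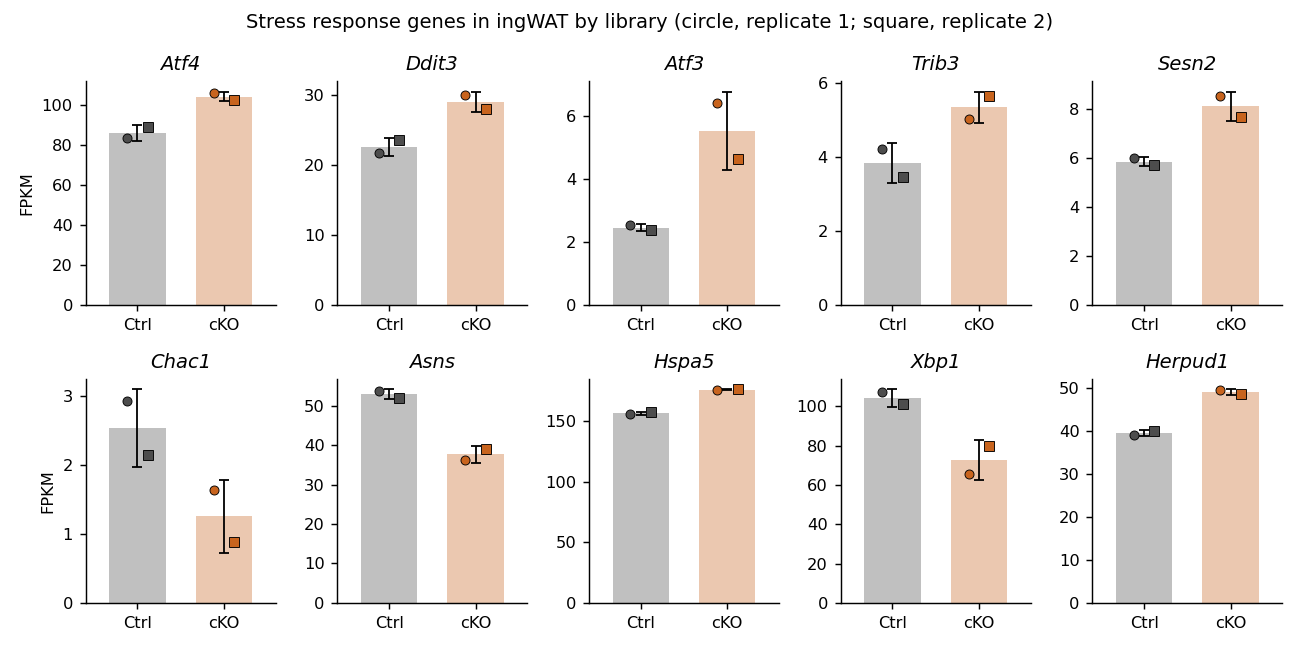
FPKM of each gene is shown per library (circle, replicate 1; square, replicate 2), with a bar from 0 to the mean of each genotype and an error bar of 1 SD (n = 2). Both cKO points lie above both Ctrl points in 7 panels and below them in the panels of *Chac1*, *Asns* and *Xbp1*, and the axis of each panel has its own scale.

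The promoters of the 10 genes, from 250 bases before to 50 after the start of transcription in RefSeq on GRCm38.p6, were searched on both strands for the motifs that these pathways are known for. The C/EBP-ATF response element, searched as TGATGNAA, is bound by ATF4 with a C/EBP partner and by CHOP. It was found in 5 of the 10 genes, *Asns*, *Atf3*, *Chac1*, *Herpud1* and *Trib3*, and in 3.97% of 32851 promoters. A single chromosome, which holds none of the 10 genes, was left out of that set of promoters. Of these 5, *Atf3*, *Herpud1* and *Trib3* rose and *Asns* and *Chac1* fell. They are shown because genes with the same motif moved in opposite directions. The capitals mark the motif, read on the strand of the gene.
Atf3, chr1:191183396-191183483, - strand: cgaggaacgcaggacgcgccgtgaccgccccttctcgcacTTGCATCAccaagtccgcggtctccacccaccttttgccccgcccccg
Trib3, chr2:152344029-152344056, - strand: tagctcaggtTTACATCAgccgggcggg
Asns, chr6:7693210-7693272, - strand: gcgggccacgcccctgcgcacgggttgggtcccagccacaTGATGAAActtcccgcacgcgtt
Chac1, chr2:119351009-119351096, + strand: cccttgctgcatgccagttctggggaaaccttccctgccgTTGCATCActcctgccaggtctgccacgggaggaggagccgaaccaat
The match in *Trib3* starts 15 bases into the transcript, and the others start 110 (*Atf3*), 23 (*Asns*) and 193 (*Chac1*) bases before the start. *Asns* holds the motif on the strand of the gene and the other genes on the opposite strand.

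The ER stress element (CCAAT, 9 bases of any kind, then CCACG) is the site of ATF6 with NF-Y. It was found in *Hspa5*, 65 bases before the start, and in 0.119% of the same set of promoters. *Herpud1* held the related ER stress element II (ATTGG, any base, then CCACG) 52 bases before the start, which 0.0365% of promoters hold, beside its C/EBP-ATF response element. The second element was searched after the promoters had been seen. These stretches are shown because they belong to the 2 ER genes of the group that lay higher in both cKO libraries. Capitals mark the motifs.
Hspa5, chr2:34771985-34772083, + strand: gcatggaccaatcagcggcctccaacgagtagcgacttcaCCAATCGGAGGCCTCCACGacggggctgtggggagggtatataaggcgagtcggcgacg
Herpud1, chr8:94386277-94386427, + strand: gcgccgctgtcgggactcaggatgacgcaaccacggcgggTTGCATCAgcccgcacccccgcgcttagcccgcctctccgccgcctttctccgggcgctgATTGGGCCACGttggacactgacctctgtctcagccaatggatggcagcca
The UPR element TGACGTGG (0.676% of promoters) and the cyclic AMP response element TGACGTCA (1.79%) were found in 0 of the 10 windows. A match is a run of letters and was not tested for binding.

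**Figure D3:**
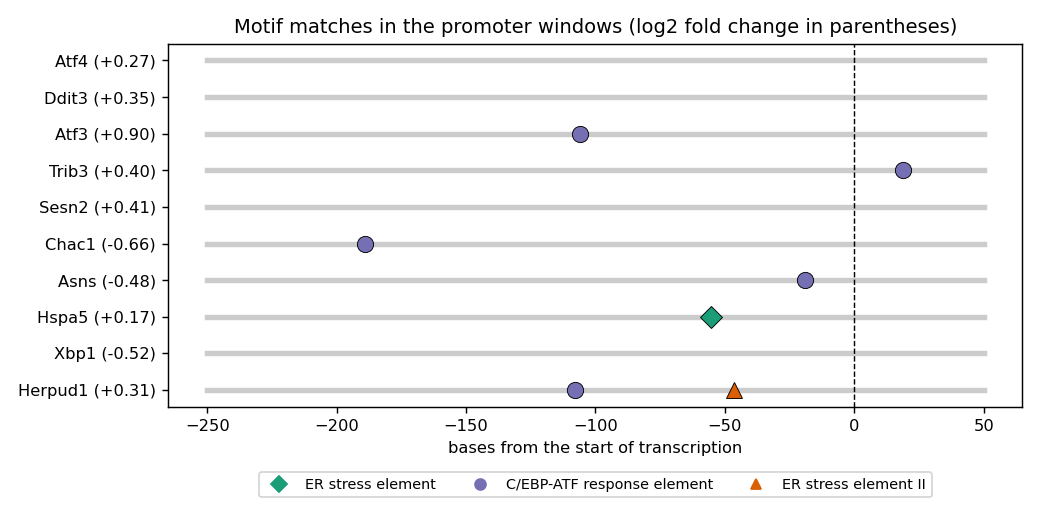
Each grey line is the promoter window of a gene, from 250 bases before to 50 bases after the start of transcription (dashed line), and each symbol is a motif match at its distance in bases, with the log2 fold change of the gene in parentheses. The C/EBP-ATF response element (circles) is present in genes with changes from -0.66 to +0.90, and *Atf4*, *Ddit3*, *Sesn2* and *Xbp1* have no match.

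Among the transcription factors, *Atf4* (chr15:80255184-80257545, + strand), the central factor of the integrated stress response, was at 83.39 and 88.78 FPKM in Ctrl and at 105.95 and 102.54 FPKM in cKO. The genotypes did not overlap, and the log2 fold change was 0.27 (SE 0.0592, adjusted p = 0.0152). *Ddit3* (chr10:127290793-127296291, + strand), which encodes CHOP, an ATF4 target that promotes cell death under lasting ER stress, was at 21.76 and 23.59 FPKM in Ctrl and at 30.11 and 28.08 FPKM in cKO. Both cKO libraries were higher, by a log2 fold change of 0.35 (SE 0.0683, adjusted p = 0.0107). Exons of *Ddit3* and *Mars* overlap on opposite strands over 68 bases, 7.64% of the exonic bases of *Ddit3*, and reads there could not be told apart if strand was not used in counting. *Mars*, a tRNA synthetase, had a log2 fold change of 0.12 (adjusted p = 0.24). The ratio of *Ddit3* to *Atf4* within a library, also chosen after the values were seen, was 0.261 and 0.266 in Ctrl and 0.284 and 0.274 in cKO.

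*Atf3* (chr1:191170296-191183333, - strand), an ATF family factor induced by many stresses, had the largest log2 fold change of the 10 in either direction with all libraries in the fit, although without cKO replicate 1 it was 0.71 beside -0.90 for *Chac1*. It was at 2.53 and 2.38 FPKM in Ctrl and at 6.4 and 4.64 FPKM in cKO, means of 2.46 ± 0.106 and 5.52 ± 1.24 FPKM (SD, n = 2). The Ctrl libraries were close together and the cKO libraries stood apart from them and from each other. The mean in cKO was 2.25 times that in Ctrl, and the log2 fold change was 0.90 (SE 0.135, adjusted p = 0.00373). About 84 and 91 reads lay behind the Ctrl values and 159 and 217 behind the cKO values. Of the 3 factors, the calls were lost without Ctrl replicate 1 (adjusted p of 0.13 for *Atf4*, 0.108 for *Ddit3* and 0.0625 for *Atf3* in limma), without Ctrl replicate 2 for *Atf4* (0.0548) and *Atf3* (0.0543), and without cKO replicate 1 for *Atf4* (0.0726) and *Ddit3* (0.0638).

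The remaining targets of ATF4 and CHOP split by direction. *Trib3* (chr2:152337425-152344060, - strand), a pseudokinase that binds AKT and holds back ATF4 and CHOP, was at 4.21 and 3.45 FPKM in Ctrl and at 5.04 and 5.64 FPKM in cKO. The cKO libraries were higher, with a log2 fold change of 0.40 (SE 0.106, adjusted p = 0.0338). *Sesn2* (chr4:132492804-132510456, - strand), a leucine-binding inhibitor of mTORC1 signalling, was at 5.99 and 5.74 FPKM in Ctrl and at 8.54 and 7.7 FPKM in cKO. Its log2 fold change was 0.41 (SE 0.0807, adjusted p = 0.0107). The call of *Trib3* was lost when any library was left out (adjusted p of 0.0821 and 0.206 without Ctrl replicates 1 and 2, and of 0.0667 and 0.141 without cKO replicates 1 and 2, in limma). That of *Sesn2* was lost without Ctrl replicates 1 and 2 and cKO replicate 1 (adjusted p of 0.0944, 0.0975 and 0.0553).

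*Asns* (chr6:7675165-7693209, - strand), the enzyme that makes asparagine and a standard readout of ATF4, moved the other way from *Atf4* itself. It was at 53.78 and 52.06 FPKM in Ctrl and at 36.19 and 39.15 FPKM in cKO, and both cKO libraries were lower. The log2 fold change was -0.48 (SE 0.0621, adjusted p = 0.00217), the lowest adjusted p of the 10, and the call was kept without any single library. Relative to *Atf4* in the same library, a ratio also chosen after the values were seen, *Asns* was at 0.645 and 0.586 in Ctrl and at 0.342 and 0.382 in cKO. *Chac1* (chr2:119351242-119354326, + strand), which degrades glutathione and is raised by ATF4 in cell culture, was at 2.93 and 2.14 FPKM in Ctrl and at 1.63 and 0.88 FPKM in cKO. Its log2 fold change was -0.66 (SE 0.186, adjusted p = 0.0397), with about 62 and 87 reads in Ctrl and 25 and 46 in cKO. The call of *Chac1* was lost without either Ctrl replicate (adjusted p of 0.26 and 0.0899 without replicates 1 and 2 in limma) and without cKO replicate 2 (0.146), and under 2 other scalings (0.0565 and 0.0848).

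Of the ER genes, *Hspa5* (chr2:34772090-34776529, + strand), the chaperone BiP that binds unfolded proteins and holds the sensors inactive, was at 155.59 and 157.09 FPKM in Ctrl and at 175.71 and 175.94 FPKM in cKO. The groups did not overlap, but the log2 fold change of 0.17 (SE 0.0544, 95% interval 0.04 to 0.30) missed the threshold with an adjusted p = 0.0609. *Herpud1* (chr8:94386429-94395371, + strand), a membrane protein of ER-associated degradation, was at 38.93 and 39.94 FPKM in Ctrl and at 49.46 and 48.58 FPKM in cKO. It rose by a log2 fold change of 0.31 (SE 0.0546, adjusted p = 0.00731), and the call was lost without Ctrl replicate 1 (adjusted p = 0.0781). *Xbp1* (chr11:5520641-5525993, + strand), the factor that IRE1 activates by splicing its mRNA, was at 107.29 and 101.03 FPKM in Ctrl and at 65.32 and 79.75 FPKM in cKO. The log2 fold change was -0.52 (SE 0.0949, adjusted p = 0.00785), and the cKO libraries differed from each other by more than those of Ctrl. Its call was lost without Ctrl replicate 1 or 2 (adjusted p of 0.107 and 0.0608 in limma). The table gives *Xbp1* as a gene with 2 RefSeq transcripts and a single value, so the spliced form was not measured.

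Genes around the 10 were described by 9 lists, with 151 of 155 genes tested, 30 called higher and 22 called lower and a median log2 fold change of 0.02. The 151 include *Gdf15*, *Fgf21* and *Fosb*, which passed the filter on low values only through the genotype where they are high. Against these counts, 12.0% of all genes tested were called higher and 13.8% lower, and 18.3% and 20.2% were higher and lower at an unadjusted p under 0.05. The 22 falls and the rises among the eIF2α regulators, the immediate early genes and the enzymes that fold collagen lie near those shares. The falls among the degradation factors and among the ER sensors and proteases lie near them too. All of these, and the 1 rise among the degradation factors, are values of single genes, not results about the lists. Without Ctrl replicates 1 and 2 the numbers called were 6 and 6 higher and 9 and 11 lower, and without cKO replicates 1 and 2 they were 14 and 15 higher and 13 and 13 lower. Upstream, the eIF2α kinases and phosphatase regulators gave 2 of 12 higher and 0 lower in limma (2 and 0 at an unadjusted p under 0.05), with a median of 0.05. The kinases *Eif2ak1* (0.09, adjusted p = 0.298), *Eif2ak2* (-0.02, 0.901), *Eif2ak3* (0.02, 0.868) and *Eif2ak4* (0.14, 0.331), which sense heme, double-stranded RNA, ER stress and amino acid shortage, did not pass in limma. The phosphatase regulator *Ppp1r15b* rose (log2 fold change 0.24, adjusted p = 0.0317), as did *Eif2b4*, a subunit of the exchange factor that phosphorylated eIF2 inhibits (0.30, adjusted p = 0.0132). The stress-induced regulator *Ppp1r15a* had a log2 fold change of 0.11 (adjusted p = 0.291). With any single library left out 0 of the 12 were called in limma, and 1 or 2 were higher at an unadjusted p under 0.05.

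Other partners and targets of ATF4 also had called genes in both directions, with 7 of 25 tested genes higher and 5 lower and a median of 0.04. The 7 include *Gdf15*, a stress cytokine, at 0.57 and 0.21 FPKM in Ctrl and at 3.23 and 2.66 FPKM in cKO. It passed the filter on low values only through cKO, where it is high, and in the limma fit without that filter its log2 fold change was 1.51 (adjusted p = 0.0307). *Fgf21*, among the 25 but not called, also passed the filter only through cKO. In the fit without the filter, 2 of 28 genes of this list were called higher and 5 lower. The partner *Cebpb* (0.55, adjusted p = 0.00508) and the factor *Atf5* (0.54, adjusted p = 0.00505) rose as well. The largest falls were those of *Phgdh* (-0.77, adjusted p = 0.000769) and *Psat1* (-0.71, adjusted p = 0.00169), which make serine, and of *Nupr1* (-0.66, adjusted p = 0.000539), a stress-induced chromatin protein. *Phgdh* lay at 72.58 and 66.57 FPKM in Ctrl and at 38.27 and 42.27 FPKM in cKO. *Eif4ebp1*, a repressor of cap-dependent translation, was the most abundant gene of the list that was not called (-0.15, adjusted p = 0.134). Of the cytosolic aminoacyl-tRNA synthetases, which charge tRNAs, 4 of 20 were higher and 0 were lower in limma (8 and 0 at an unadjusted p under 0.05), with a median of 0.11. *Wars* (0.26, adjusted p = 0.0349), *Gars* (0.24, adjusted p = 0.0397) and *Vars* (0.21, adjusted p = 0.0398) had the largest rises, and *Nars* was not called (0.06, adjusted p = 0.469). The 4 calls fell to 1 without cKO replicate 2, and to 0 without each of the other libraries, with no filter and with eBayes without a trend (2 to 8 higher at an unadjusted p under 0.05 in limma). Of the ATF4 partners and targets, 2 were called higher without either Ctrl replicate and 4 without either cKO replicate.

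On the ER side, 0 of 9 sensors and proteases were higher and 1 was lower in limma (0 and 3 at an unadjusted p under 0.05), with a median of -0.13. Among all genes tested, 12.0% were called higher and 13.8% lower. The 1 lower of the 9 was *Creb3l1* (-0.79, adjusted p = 0.0014), an ER-anchored factor known for collagen secretion. *Ern1* (-0.17, adjusted p = 0.259), *Atf6* (0.01, adjusted p = 0.951) and *Mbtps1* (-0.21, adjusted p = 0.0552) did not pass in limma. Of 24 ER chaperones and foldases, 5 were higher and 5 were lower, with a median of 0.01. *Creld2* (0.45, adjusted p = 0.00407), *Manf* (0.43, adjusted p = 0.00294) and *Sdf2l1* (0.40, adjusted p = 0.00569), which are small ER proteins induced by ER stress, rose. The prolyl isomerase *Fkbp14* (-0.63, adjusted p = 0.00167), the thioredoxin-like *Txndc5* (-0.30, adjusted p = 0.011) and the BiP exchange factor *Sil1* (-0.25, adjusted p = 0.0181) fell, and *Calr* did not pass (log2 fold change -0.00, adjusted p = 0.988). Degradation and translocation factors gave 1 higher and 3 lower of 26, with a median of -0.04. The ligase *Syvn1* rose (0.30, adjusted p = 0.0302), *Ssr3* (-0.27, adjusted p = 0.0131), *Erlec1* (-0.27, adjusted p = 0.0248) and *Ssr2* (-0.21, adjusted p = 0.041) fell, and the ATPase *Vcp* was not called (-0.02, adjusted p = 0.837). The call of *Syvn1* was lost without Ctrl replicate 1, Ctrl replicate 2 or cKO replicate 2. Leaving out a library gave 1 to 4 higher and 1 to 2 lower chaperones and foldases (the fewest rises without Ctrl replicate 2, the fewest falls without Ctrl replicate 1), and 0 lower degradation and translocation factors in limma whichever library was left out (2 to 5 at an unadjusted p under 0.05). *Creb3l1* was called without any single library.

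Enzymes that fold collagen in the ER gave 1 higher and 4 lower of 11 tested, with a median of -0.19. The collagen prolyl hydroxylase *P4ha1* rose (0.33, adjusted p = 0.0111), whereas *Fkbp10* (-0.43, adjusted p = 0.0057), *P3h1* (-0.41, adjusted p = 0.0162) and the collagen chaperone *Serpinh1* (-0.39, adjusted p = 0.00664) fell and *Crtap* did not pass (-0.19, adjusted p = 0.103). The call of *P4ha1* was lost without Ctrl replicate 1, Ctrl replicate 2 or cKO replicate 1. Cytosolic heat shock genes, a separate protein folding programme, were higher in 8 of 11 and lower in 0 in limma (10 and 0 at an unadjusted p under 0.05), with a median of 0.36. *Hsph1* (0.95, adjusted p = 0.00307), *Dnajb1* (0.62, adjusted p = 0.00132) and *Hspa1a* (0.47, adjusted p = 0.0202) had the largest rises, although *Hspa1a* has a near-identical paralog, *Hspa1b*, and its value is uncertain. *Hspa8* missed the threshold (0.24, adjusted p = 0.0531). With no filter on low values limma called 1 of the 11 higher (9 at an unadjusted p under 0.05), and with eBayes without a trend it called 6. Without Ctrl replicates 1 and 2, 2 and 3 of the 11 heat shock genes were called higher, and without cKO replicates 1 and 2, 3 and 6 were. The falls of the collagen enzymes numbered 0 and 1 in limma without Ctrl replicates 1 and 2 (4 and 5 at an unadjusted p under 0.05), and 2 without either cKO replicate.

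Immediate early genes, which like *Atf3* respond quickly to stimuli, had calls in both directions, with 2 of 14 higher and 4 lower and a median of 0.12. *Fos* was at 19.33 and 14.14 FPKM in Ctrl and at 2.94 and 4.19 FPKM in cKO (log2 fold change -1.96, adjusted p = 0.000601). *Egr1* fell as well (-1.30, adjusted p = 0.000617). *Fosb* was at 2.81 and 2.58 FPKM in Ctrl and at 0.23 and 0.39 FPKM in cKO. It passed the filter only through Ctrl, where it is high, and in the limma fit without the filter its log2 fold change was -1.50 (adjusted p = 0.0246). *Fosb* is 1 of the 4 called falls, and in the fit without the filter 0 of the 14 were called higher and 3 lower. In the other direction, *Ier3* (0.28, adjusted p = 0.0381) and *Btg2* (0.24, adjusted p = 0.0401) rose and *Jund* was not called (0.10, adjusted p = 0.407). With a library left out, 2 rises were called in limma without cKO replicate 1 and 0 without each of the others (0 to 3 at an unadjusted p under 0.05). *Atf3* was higher in cKO than in Ctrl while *Fos*, *Fosb* and *Egr1* were lower, and a relation between them across libraries was not tested.

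**Figure D4:**
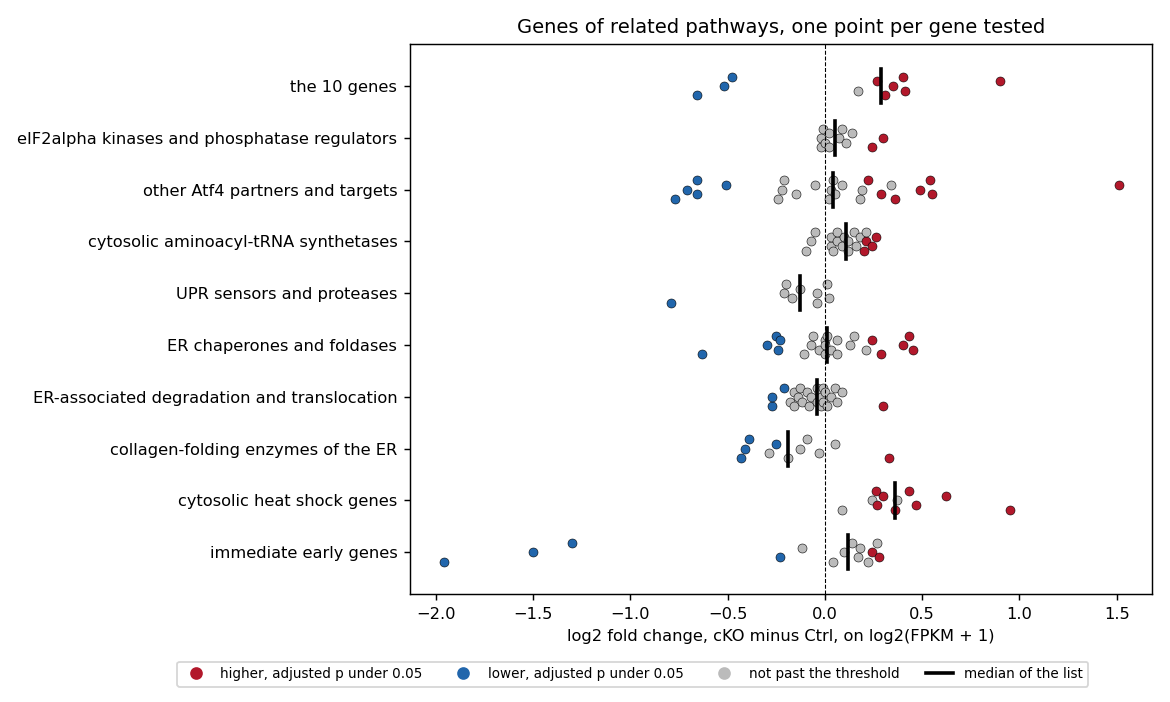
Each point is a gene tested in 1 of the lists, placed by its log2 fold change (cKO minus Ctrl, on log2(FPKM + 1)) and coloured by the call, and black bars mark the median of each list. The 10 genes, the other ATF4 partners and targets and the ER chaperones have called genes on both sides of 0, the heat shock genes have called genes only to the right, and *Fos*, *Fosb* and *Egr1* are farthest to the left.

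Markers of cell types differed between the same libraries. Of all 12658 genes tested, 12.0% were called higher and 13.8% lower, and the counts of markers below stand beside those shares. Sums given here are over every listed marker of a type. In bulk tissue, fewer cells of a type and less RNA per cell cannot be told apart. The skeletal muscle genes had a summed level of 1687 to 2510 FPKM in Ctrl and 9.32 to 11.9 FPKM in cKO. Of the 11 tested, 8 passed the filter only through Ctrl, where they are high, so no count of falls is given for them. All 6 B cell markers were higher (220 to 246 FPKM in Ctrl and 345 to 391 in cKO), as were 6 of 7 T cell markers (101 to 104 and 139 to 182 FPKM). The 5 tested neutrophil markers were called higher too (13 to 13.4 and 29 to 30.6 FPKM, with *Ly6g* listed at 0 in 1 library of each genotype). Of these, *Retnlg* passed the filter only through cKO, where it is high. In the limma fit without that filter *Retnlg* was not called (log2 fold change 0.64, adjusted p = 0.119), and 4 of the 7 listed neutrophil markers were called higher. The same fit called 2 of the 6 B cell and 0 of the 7 T cell markers higher (6 and 6 at an unadjusted p under 0.05). The plasma cell markers summed to 45 to 49.6 FPKM in Ctrl and 38.3 to 49.4 FPKM in cKO. Of the 5 tested, 1 was called higher and 1 lower, and *Tnfrsf17* passed the filter only through Ctrl, where it is high. In the limma fit without the filter 0 of the 6 listed plasma cell markers were called higher and 0 lower. Fibroblast markers were lower in 6 of 7 (1651 to 1878 and 1038 to 1082 FPKM), and macrophage markers were higher in 1 and lower in 5 of 8 (623 to 755 and 556 to 585 FPKM). All 6 brown or beige adipocyte markers were higher (1345 to 1570 and 3527 to 4193 FPKM), and 3 of 8 white adipocyte markers (22788 to 23026 and 18999 to 19178 FPKM) and 2 of 5 endothelial markers (222 to 223 and 192 to 204 FPKM) were lower. Of the epithelial markers 1 was tested and it was not called, with a sum of 4.21 to 4.31 FPKM in Ctrl and 3.1 to 3.18 FPKM in cKO. Without Ctrl replicate 1, limma called 2 of the B cell, 3 of the neutrophil, 3 of the fibroblast and 0 of the T cell markers (6, 4, 6 and 5 at an unadjusted p under 0.05). Without Ctrl replicate 2, T cell calls numbered 1 and neutrophil calls 3, and without cKO replicate 2, T cell calls numbered 4. Macrophage markers called lower numbered 2 without Ctrl replicate 1, cKO replicate 1 or cKO replicate 2. White adipocyte calls numbered 1 without Ctrl replicate 1, and endothelial calls 1 without either Ctrl replicate or cKO replicate 1. The part of these differences in the levels of the 10 genes was not tested.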

How the data were processed

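The authors sequenced RNA of ingWAT from 2 Ctrl and 2 cKO libraries. Polyadenylated RNA was read as single-end reads of 50 bases, and the submitters' processing notes list HISAT2 2.0.4, RSEM 1.2.12 and mm10. The deposited table holds FPKM per gene, as the authors computed it, without counts. No per-sample column was left unused.

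Genes whose FPKM averaged 1 or more across the 4 libraries were tested with limma 3.58.1 (R 4.3.3). The model was fitted to log2(FPKM + 1), variances were moderated with a trend on the mean, and p-values were adjusted by Benjamini-Hochberg over 12658 genes (threshold 0.05). A fold change on this scale understates the change of low genes. Depth was estimated from the steps between low FPKM values, of which 84.6% to 91.4% came out as whole reads within 0.1. Reads per gene are estimates from it and transcript length.

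Gene coordinates and promoters came from RefSeq on GRCm38.p6, which held a promoter window for all 10 genes. Strands, exon overlaps and transcript sequences came from GENCODE vM21. No stretch of 50 bases of the transcripts searched, 1 per gene and read on their own strand, was found in another gene's transcripts. *Atf4*, *Ddit3*, *Hspa5* and *Xbp1* have 2 RefSeq transcripts each, of which only 1 was matched, so the other was not covered. The opposite strand was covered by the overlap of exons alone. Of 246 entries in the lists, 240 matched by symbol and the others through the reference's names, except *Krt14*. Named are the 10 genes, *Slc22a3*, the eIF2α kinases, phosphatase regulators and ER sensors, and from each list up to 3 largest called rises and falls and the most abundant gene not called. The genes and lists were chosen with earlier results of these data known. Other steps and figures used Python 3.11.15, pandas 2.3.3, matplotlib 3.10.9 and numpy 2.4.6.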

Additional observations from a re-analysis of the deposited data

How the results depend on the processing

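The alternatives were quantile normalization, median-of-ratios scaling, a replicate block, eBayes without a trend, a pseudocount of 0.1, a filter at a mean of 5 FPKM, none at all, and each library left out in turn. Every one of the 10 genes kept its direction in all of them in which it was tested. As the genotypes did not overlap, this was fixed in advance except under quantile normalization and median-of-ratios scaling. With no filter on low values 1762 genes were called in place of 3269, 1 of the 10 genes was called higher and 1 lower, and 9 genes of the pathway lists were called higher. The calls then lost were those of *Atf4* (0.27), *Ddit3* (0.35), *Atf3* (0.90), *Trib3* (0.40), *Chac1* (-0.66), *Sesn2* (0.41) and *Xbp1* (-0.52, log2 fold changes). That fit both moderated the variances and adjusted the p-values over all 19030 genes. *Chac1* was also not called under median-of-ratios scaling (-0.65), quantile normalization (-0.58) and eBayes without a trend (-0.66), and the last gave 19 called rises in the pathway lists. The filter at a mean of 5 FPKM left *Atf3*, *Trib3* and *Chac1* untested. *Hspa5* passed under none of the 11.

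Leaving out a library, where the lone sample was assumed to vary like the other genotype, gave 787 to 2340 genes called, 0 to 5 of the 10 called higher and 1 to 3 lower (without Ctrl replicate 1, 6 higher and 2 lower at an unadjusted p under 0.05 in limma), and 6 to 15 rises and 9 to 13 falls in the lists. The log2 fold changes then ran from 0.23 to 0.32 for *Atf4*, 0.29 to 0.40 for *Ddit3*, 0.71 to 1.10 for *Atf3*, 0.28 to 0.51 for *Trib3*, -0.90 to -0.42 for *Chac1*, 0.34 to 0.47 for *Sesn2*, -0.66 to -0.38 for *Xbp1* and 0.29 to 0.32 for *Herpud1*.

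The replicate block called 3383 genes and changed no call of the 10. The 2 samples with a number share only that number, with a correlation of r = 0.0148 between their deviations from the group means over 12658 genes. About 25 to 91 reads behind *Chac1* and *Atf3* in the lowest libraries limit their precision.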
